A study of Homo sapiens with 2 samples.

Results

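The extracellular signal-regulated kinase (ERK) pathway switches on genes that report its activity and genes that dampen it, and 10 of these were followed in SW48 cells after siRNA against the transcription factor YY1. The members were DUSP4, DUSP5, DUSP6, SPRY2, SPRY4, SPRED1, SPRED2, ETV4, ETV5 and FOSL1. They were chosen by gene symbol, and all 10 of 10 were measured, among 17687 named genes on the array. SW48 is an established human colorectal cancer cell line of epithelial origin. Both groups were SW48 cultures studied 3 days after lipid transfection with siRNA at 5 nmol/L. The siControl group received a commercial negative control siRNA and the siYY1 group a single siRNA directed at YY1, which is a zinc finger protein that can activate or repress its targets. Each group was 1 array of total RNA, so every value below is from 1 culture of 1 cell line with 1 siRNA.

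In this pathway, growth factor receptors such as EGFR recruit the adaptor GRB2 and the exchange factors SOS1 and SOS2, which load RAS proteins with GTP, and RAS then activates RAF, MEK and ERK kinases in turn. ERK induces its own brakes. The DUSP phosphatases remove the activating phosphates from ERK and its relatives, and Sprouty (SPRY) and Spred (SPRED) proteins act higher up, at receptors, RAS and RAF. The PEA3-group ETS factors ETV4 and ETV5 and the AP-1 subunit FRA-1, encoded by FOSL1, are transcription factors whose own levels follow ERK activity, and in colorectal cancer this set of genes is widely read as a gauge of the pathway. SW48 is known to carry an activating EGFR mutation.

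The members did not move as one block. Exactly 5 members were higher in siYY1 and 5 were lower, and their median difference was 0.05 on the log2 scale, where all differences here are siYY1 minus siControl. FOSL1 was the lowest, at 1.94-fold lower, and ETV5 the highest, at 1.51-fold higher. The feedback genes DUSP6 and SPRY2 were each 1.38-fold higher, whereas DUSP4 was 1.31-fold lower. Having a single array in each group left no replicate error and allowed no test. A fixed size of 1.5-fold was used to describe differences, and none of them has a replicate check.

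Promoter sequence is shown for the feedback members that were higher and had an entry in the RefSeq-derived table of GRCh38.p14, which are DUSP6, SPRY2 and SPRY4, and for SPRED1, which was slightly lower. The table matched 5 of the 10 members, with 8 windows in all, the other matched gene being SPRED2. Each stretch is the 250 bases before the gene's start, 5′ to 3′ on the gene's strand. DUSP6 lies at chr12:89352502-89352751 (minus strand), SPRY2 at chr13:80341127-80341376 (minus strand, the first of its 3 windows), SPRY4 at chr5:142324248-142324497 (minus strand) and SPRED1 at chr15:38252586-38252835 (plus strand). Capitals mark matches, on either strand, to a short ETS core (GGAAG, read as CTTCC on the opposite strand) or a short YY1 core (GCCAT).
DUSP6: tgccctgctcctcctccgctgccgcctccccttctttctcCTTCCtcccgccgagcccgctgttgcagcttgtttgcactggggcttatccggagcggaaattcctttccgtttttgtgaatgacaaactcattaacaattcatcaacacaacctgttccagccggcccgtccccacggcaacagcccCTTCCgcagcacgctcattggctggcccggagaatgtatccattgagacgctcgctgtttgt
SPRY2: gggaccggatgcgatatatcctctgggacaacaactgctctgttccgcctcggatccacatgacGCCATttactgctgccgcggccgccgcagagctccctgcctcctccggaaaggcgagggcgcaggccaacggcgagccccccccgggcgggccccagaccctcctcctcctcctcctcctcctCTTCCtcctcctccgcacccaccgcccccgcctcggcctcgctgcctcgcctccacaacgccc
SPRY4: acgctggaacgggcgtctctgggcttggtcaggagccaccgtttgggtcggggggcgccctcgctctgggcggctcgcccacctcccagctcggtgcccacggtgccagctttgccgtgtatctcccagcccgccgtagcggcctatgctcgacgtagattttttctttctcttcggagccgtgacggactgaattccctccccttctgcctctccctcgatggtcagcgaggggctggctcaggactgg
SPRED1: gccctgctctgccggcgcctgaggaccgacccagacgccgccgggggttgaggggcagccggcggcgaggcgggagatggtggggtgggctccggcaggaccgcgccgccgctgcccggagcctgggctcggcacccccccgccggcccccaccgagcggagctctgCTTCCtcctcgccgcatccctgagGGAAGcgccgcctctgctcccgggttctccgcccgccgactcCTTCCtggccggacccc

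The short ETS core was present before the start in 7 of 8 member windows, against 65.1% of all 35116 windows in the table. DUSP6 held 2 matches and SPRED1 3, while SPRY4 held none of either motif. The short YY1 core occurred in 2 of 8 member windows, against 29.4% of all windows, once in the printed SPRY2 window and once in the second SPRED2 window. Longer motifs were searched as well, on both strands: a longer ETS core (CCGGAAG, which contains the short one), an AP-1 site (TGANTCA), part of the cAMP response element (TGACGTC) and a longer YY1 core (AAGATGG). None of these lay wholly before the start in any of the 8 member windows. Among all windows they were found there in 8.52%, 6.57%, 3.12% and 3.70% respectively. Each full window is 300 bases and runs past the start. Over that length the AP-1 site and the cAMP part each occurred in 1 of 8 member windows, both of SPRED2. The shares of all full windows were 7.71% and 3.45%. A match is only a run of letters, not a shown binding site.

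Depth on arrays is signal, and the filter used here kept a gene when its mean log2 level over both arrays was at least 7.54, the median of all named genes. It kept 8844 genes, including all 10 members. The deposited values had a median of 7.11 in siControl and 7.10 in siYY1. Of 12 colonic epithelial markers measured, 9 were kept, 4 of them higher in siYY1 and 5 lower, with a median difference of -0.13. The 3 dim ones were VIL1 (6.04 in siControl and 5.68 in siYY1), CDX1 (4.12 and 3.73) and LGALS4 (4.11 and 4.66). The intestinal transcription factor gene CDX2 (11.91 in siControl and 12.06 in siYY1) and the epithelial cadherin gene CDH1 (13.55 and 13.57) differed little, the keratin gene KRT19 differed by -0.34, and CEACAM5, which encodes carcinoembryonic antigen, was past 1.5-fold, at 13.80 and 12.42. Of 8 fibroblast markers 1 was kept, of 9 leukocyte markers 2, and of 6 endothelial markers none. The kept fibroblast marker was COL1A2, at 8.60 and 9.05, a difference of 0.45. The kept leukocyte markers were CD68, at 8.72 and 7.64 and so past 1.5-fold downward, and CD79A, which differed by 0.04. The summed log2 level was 40.1 and 39.2 for the fibroblast list, 51.3 and 51.6 for the leukocyte list, and 27.8 and 27.6 for the endothelial list, in siControl and siYY1. In the leukocyte sum the dim gene LYZ (difference 0.98) offset CD68. The part of these markers in the results below was not tested. YY1 was not analysed here, and the knockdown was therefore not checked.

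The phosphatases went both ways. DUSP6, the cytoplasmic phosphatase selective for ERK, measured 12.27 in siControl and 12.74 in siYY1, which is 0.47 higher (probe set TC1200011470.hg.1). DUSP4, a nuclear phosphatase induced by ERK, went the other way, from 12.70 to 12.31, a difference of -0.39 (TC0800010002.hg.1). The difference of DUSP4 was therefore 0.86 below that of DUSP6. DUSP5, which binds and inactivates ERK in the nucleus, was 7.95 in siControl and 7.44 in siYY1 (difference -0.51, probe set TC1000008891.hg.1). Its siYY1 value lay under the filter value, a range in which signal above background was not shown, which leaves the size of that difference uncertain. No phosphatase among the members reached 1.5-fold in either direction.

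**Figure D1:**
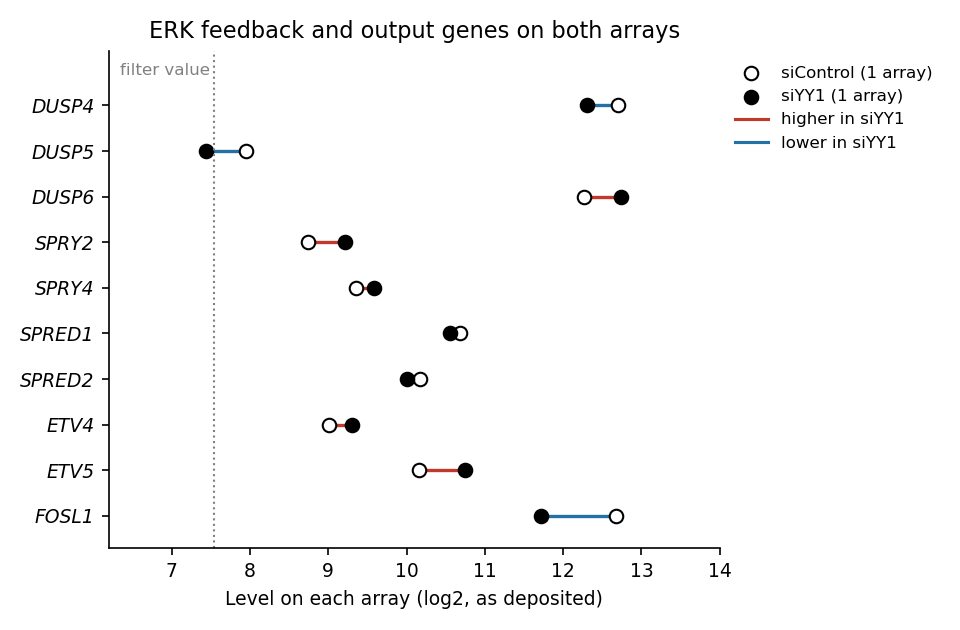
Level of each member on the siControl array (open circle) and the siYY1 array (filled circle), in log2 units as deposited, with 1 array per group and no error bars. Lines are red where siYY1 was higher (5 members) and blue where it was lower (5 members), the longest line is that of FOSL1, and the dotted line is the filter value of 7.54.

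The Sprouty members were higher and the Spred members slightly lower, with the largest difference in SPRY2. SPRY2, an inhibitor of receptor signalling to RAS, was 8.74 in siControl and 9.21 in siYY1, higher by 0.47 (TC1300009348.hg.1). SPRY4, a related inhibitor, was 9.35 and 9.58, a difference of 0.23 (TC0500012312.hg.1). The Spred proteins bring the RAS GTPase-activating protein neurofibromin to the membrane. SPRED1 was 10.68 in siControl and 10.55 in siYY1, with a difference of -0.13 (TC1500006896.hg.1). SPRED2 was 10.17 and 10.01, a difference of -0.16 (TC0200012863.hg.1). Both Sprouty members were thus higher and both Spred members lower, and the Spred differences were smaller than 0.18, the median size of difference over all kept genes.

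The transcription factors held both ends of the range. FOSL1 had the largest difference of any member, from 12.67 in siControl to 11.71 in siYY1, or -0.96 (TC1100011259.hg.1). ETV5 was 10.16 in siControl and 10.75 in siYY1, higher by 0.59 (TC0300014082.hg.1). Its paralog ETV4 was 9.01 and 9.30, a difference of 0.29 (TC1700010790.hg.1). Both ETV genes were higher while FOSL1 was lower, and the gap between the differences of FOSL1 and ETV5 was 1.55.

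By the size rule, 1 member was higher by 1.5-fold or more (ETV5) and 1 was lower by as much (FOSL1). Over all kept genes the shares were 3.04% on the higher side, 3.78% on the lower side and 6.82% in all. ETV5 passed the rule narrowly: the rule corresponds to 0.585 on the log2 scale, ETV5 stood at 0.594, and with the differences centred on the median of all probes it stood at 0.581 and no longer passed. At a lower threshold of 0.32 on the log2 scale, 3 members were higher (ETV5, SPRY2 and DUSP6) and 3 lower (FOSL1, DUSP5 and DUSP4). The shares of kept genes at that threshold were 12.2% and 13.5%, 25.7% in all. No member was 2-fold higher or lower (0 and 0), which 0.373% and 0.577% of kept genes were, 0.950% in all. The median size of the members' differences was 0.43, against 0.18 for all kept genes, while their signed median (0.05) was near that of all kept genes (0.0028). These members were proposed with results of the same arrays known, so this is a description only.

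Scatter between arrays depends on level, so each member was also placed among the 500 named genes nearest to it in mean level. For FOSL1, 2 of the 500 neighbours (0.400%) were as far or further in the same direction. For ETV5 this held for 13 (2.60%), for DUSP6 for 22 (4.40%) and for DUSP4 for 29 (5.80%). DUSP5 and SPRY2, which are dimmer, had 42 (8.40%) and 43 (8.60%) such neighbours. The remaining members lay well inside the bulk of their neighbours, with 85 for ETV4, 108 for SPRY4, 155 for SPRED2 and 168 for SPRED1. The SD of the neighbours' differences was 0.29 around FOSL1, DUSP4 and DUSP6 and 0.38 around SPRY2, ETV4 and DUSP5. FOSL1 was thus among the furthest of the genes at its level, and the Spred genes were near the middle of theirs.

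**Figure D2:**
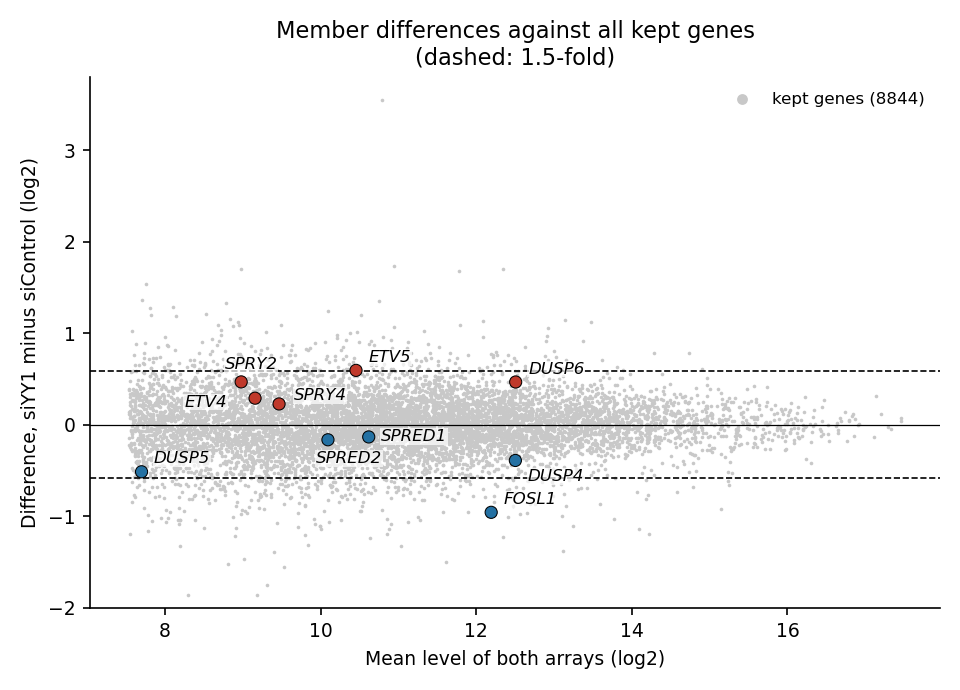
Difference between the arrays (siYY1 minus siControl, log2) against mean level (log2) for the 8844 kept genes (grey) and the 10 members (red, higher; blue, lower), with dashed lines at 1.5-fold. FOSL1 (-0.96) lies below the grey cloud's main body, ETV5 (0.59) lies on the upper line, and SPRED1 and SPRED2 lie inside the cloud.

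Other genes of the pathway were taken from 9 lists with 126 genes, of which 111 were measured, 83 were kept and 15 were not analysed here. Of the 83, 4 were higher and 6 lower by 1.5-fold or more, 12.0% in all against the 6.82% of all kept genes. The lists, like the members, were chosen with earlier results of these arrays known, so these shares are a description only. The median difference of the 83 was 0.02, with 46 positive and 37 negative. Over all kept genes 50.4% were positive, which is the share to set beside each count by sign below.

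The remaining MAP kinase phosphatases that were kept all had positive differences, 4 of 4, with a median of 0.35, and 1 of them was past 1.5-fold. That was DUSP16, a phosphatase of JNK and p38, at 8.42 in siControl and 9.02 in siYY1. DUSP2 and DUSP7 each differed by 0.35, and DUSP9 by 0.15, less than the median size of 0.18 over all kept genes. Set by their known classes, a grouping made after the values were seen, all 3 cytoplasmic ERK phosphatases (DUSP6, DUSP7 and DUSP9) were higher. Of the nuclear inducible class, DUSP4 and DUSP5 were lower, DUSP2 was higher and DUSP1 was dim, at 6.94 and 6.86. DUSP8 and DUSP10 were dim as well, below 5 on both arrays. Of the other Sprouty and Spred genes only SPRY1 was bright enough to be kept, and like SPRY2 and SPRY4 it was higher, at 10.65 and 11.09, a difference of 0.44.

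**Figure D3:**
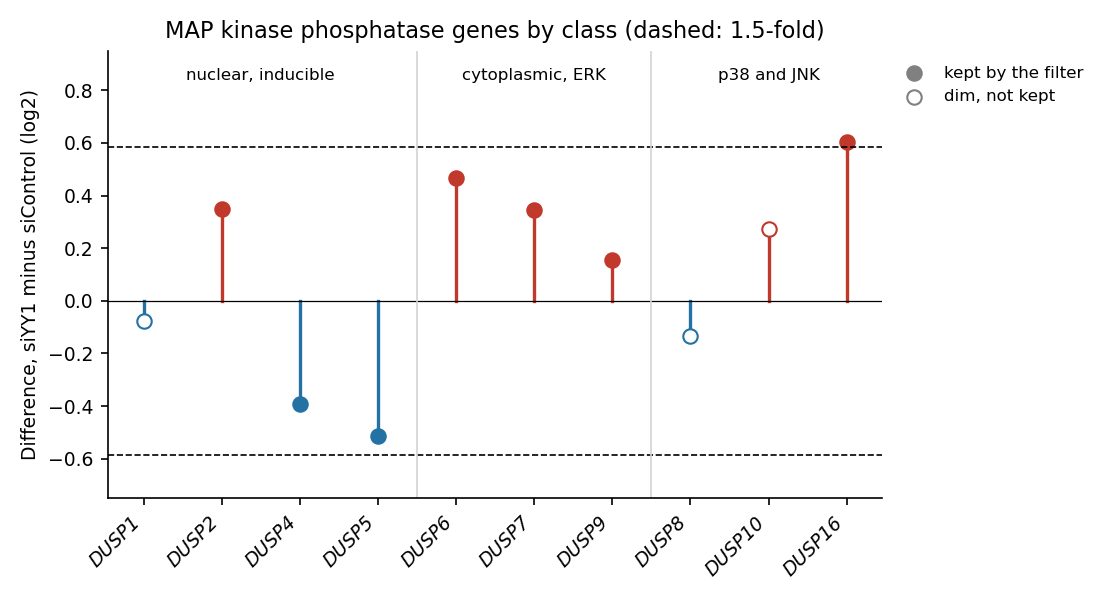
Difference between the arrays (siYY1 minus siControl, log2) for 10 MAP kinase phosphatase genes in 3 known classes (red, higher; blue, lower), with filled circles for genes kept by the filter, open circles for dim genes and dashed lines at 1.5-fold. DUSP6, DUSP7 and DUSP9 are above 0, DUSP4 and DUSP5 are below 0, and DUSP16 (0.60) lies just past the upper line.

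Brakes acting on receptors and RAS had a median of 0.07 over 12 kept genes, 8 of them higher and 4 lower. IL17RD, a membrane inhibitor of receptor signalling that is itself induced by the pathway, was 9.11 in siControl and 9.62 in siYY1, higher by 0.51. ERRFI1, an EGFR inhibitor also known as MIG6, was 13.16 and 13.56, a difference of 0.40. The RAS GTPase-activating gene RASA3 was the 1 member past 1.5-fold, at 10.97 and 10.12, a difference of -0.85. LRIG1, which promotes receptor turnover, differed by -0.32.

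Among 19 kept components of the cascade, 2 were higher by 1.5-fold or more and none were lower by as much, with a median of 0.02. GRB2, the adaptor that links receptors to SOS, went from 12.91 to 14.04 between the control and knockdown arrays, 1.13 higher or 2.18-fold, and 0 of its 500 nearest neighbours in level were as far from 0. SOS2, an exchange factor that GRB2 binds, was 10.19 and 11.11, a difference of 0.92, while its paralog SOS1 differed by 0.13. The docking protein gene GAB1 differed by -0.48 and the ERK-activated kinase gene RPS6KA1 by -0.31. The kinases at the core stayed close to 0, with MAP2K1 at 0.05, MAP2K2 at 0.09 and MAPK3, which encodes ERK1, at 0.02. SOS1 and these kinases were chosen after their values were seen. The list for the parallel p38 and JNK cascades had a median of -0.11 over 13 kept genes. In it, MAP3K1 (0.65) was past 1.5-fold upward and MAP3K7, which encodes TAK1, past it downward (-0.61). The JNK gene MAPK9 differed by 0.29. MAPK7, which was placed in this list but encodes ERK5 of a separate cascade, differed by -0.17.

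FOSL1 was lower alongside some but not all AP-1 genes. The AP-1 subunit gene JUND was 8.48 in siControl and 7.55 in siYY1, with a difference of -0.93, and its siYY1 value was close to the filter value. The other kept subunits were FOS (0.38), JUN (0.33), FOSL2 (0.29, named after its value was seen) and JUNB (-0.10), so 3 of 5 kept genes were higher and the list's median was 0.29. Of 9 AP-1 target genes 4 were kept, and all 4 had negative differences, with a median of -0.23. The 5 dim targets went both ways. MMP1 (0.93), MMP3 (0.16) and CXCL8 (0.09) were higher, and MMP9 (-0.30) and MMP10 (-0.05) lower, all below the filter value. PLAUR, the urokinase receptor gene, was the 1 past 1.5-fold, at 11.45 and 10.31, a difference of -1.14. The hyaluronan receptor gene CD44 differed by -0.32, the protease gene PLAU by -0.15 and the protease inhibitor gene TIMP1 by -0.04. The PLAU and TIMP1 differences were smaller than 0.18, the median size over all kept genes. The ETS family beyond ETV4 and ETV5 had 9 of 12 kept genes above 0, a median of 0.11 and none past 1.5-fold. ELK1, a direct ERK substrate, differed by 0.40 and ELF2 by 0.25, while ETV1, the third PEA3-group gene, differed by -0.23 and ELK4 by -0.22.

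The remaining ERK outputs had a median of -0.07 over 13 kept genes, with 4 above 0 and 9 below, and 2 were past 1.5-fold, both lower. LIF, a cytokine gene, was 9.97 in siControl and 9.10 in siYY1, with a difference of -0.87. EREG, the gene of the EGFR ligand epiregulin, was 10.75 and 10.11, a difference of -0.64. The immediate-early factor gene EGR1 was higher, at 15.36 and 15.78 (0.43), and VEGFA differed by 0.13. PHLDA1 and CCND1, which are widely used ERK readouts and were chosen here after their values were seen, differed by 0.01 and -0.12. The readouts of the pathway therefore lay on both sides of 0, as the members did.

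**Figure D4:**
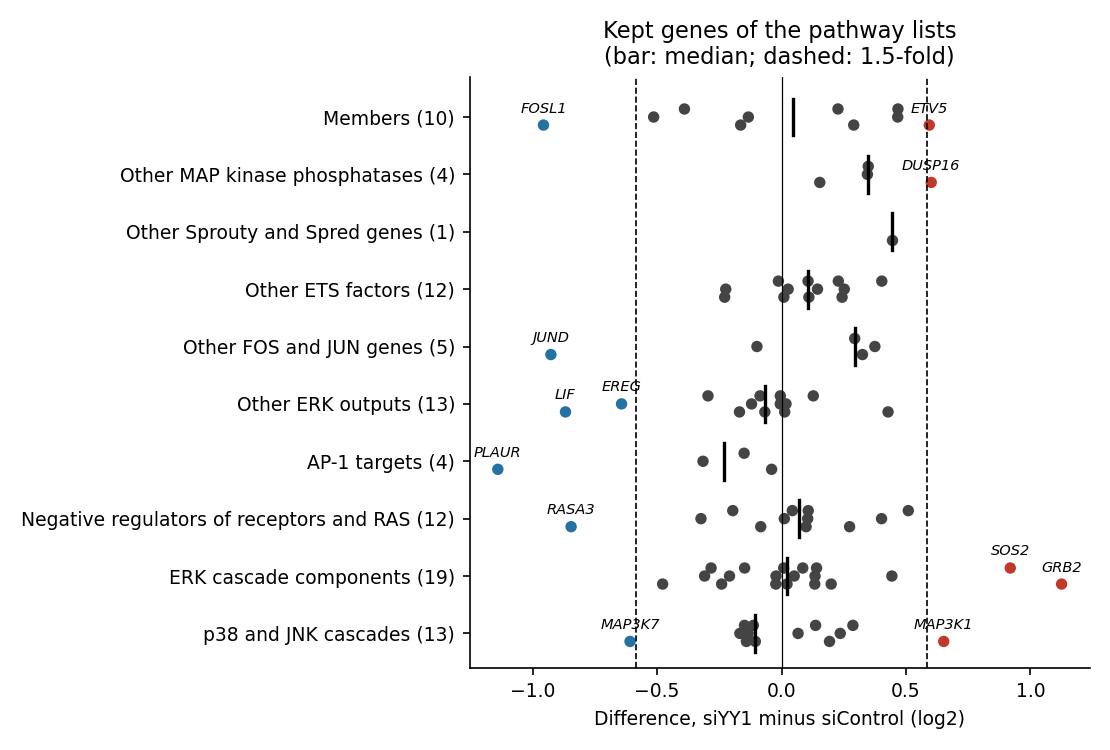
Difference between the arrays (siYY1 minus siControl, log2) for each kept gene of the members and of 9 pathway lists (number of kept genes in parentheses), with a bar at each list's median and dashed lines at 1.5-fold. Genes past a dashed line are coloured and named: GRB2, SOS2, MAP3K1, DUSP16 and ETV5 lie on the high side, and PLAUR, FOSL1, JUND, LIF, RASA3, EREG and MAP3K7 on the low side.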

How the data were processed

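Total RNA from 2 SW48 cultures was hybridised to whole-transcript GeneChips, 1 array per group, grouped by their titles. Values for 21448 probe sets were deposited by the authors and were used as log2 values, judging from their range (2.46 to 17.90 in siControl, 2.32 to 17.97 in siYY1). The sources used here do not state how they were summarized and normalized, or their log base. Every fold assumes log2. When sorted, the values of both arrays lay within 0.153 of each other, a near-equal distribution that would hide a change shared by all genes.

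Probe sets were named through GEO's platform annotation, updated by Entrez identifier to a RefSeq table of GRCh38.p14 (17709 with 1 symbol, 0 with several, 3739 with none, 0 symbols changed). Probe sets of a gene were averaged (20 genes), and each member had 1. No test was possible. The members, lists and tests were chosen with earlier results of these data known, and the short motifs after a first search of the promoters. Named genes were all members, pathway list genes past 1.5-fold, and up to 2 kept genes at each end of a pathway list. Cell type markers, the dim phosphatase genes and the dim AP-1 target genes were named outside this rule, after their values were seen. The code that counts genes past a fold was checked on simulated data. Alternatives were other folds, filters, normalizations and probe choice. Python 3.11.15, numpy 2.4.6, pandas 2.3.3, statsmodels 0.14.6 and matplotlib 3.10.9 were used.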

Additional observations from a re-analysis of the deposited data

How the results depend on the processing

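Each group was 1 array, so no array could be left out, and no paired analysis was possible because each group has 1 sample. The members' differences were recomputed under quantile normalization, median centring, lowess centring (fraction 0.3) and the brightest probe set of each gene. Of 40 such values, 39 kept their direction and their side of 1.5-fold, and no value moved by more than 0.032. Each member had 1 probe set, so the brightest probe set could not change its value. Median centring shifted every gene by the same -0.013. The 40 values are therefore not independent checks. The exception to the 39 was ETV5 under median centring (0.581), which left 0 members at least 1.5-fold higher. With a threshold of 0.32 on the log2 scale, 3 members were higher and 3 lower, 22 pathway list genes were past it in place of 10, and 2274 of all kept genes in place of 603. At 2-fold the counts were 0 and 0 members, 2 list genes and 84 kept genes. Without the filter on dim genes, 1394 genes were past 1.5-fold. A filter at the 75th percentile (10.8) left 3 members, with 0 at least 1.5-fold higher and a median difference of -0.39, along with 3 list genes and 204 of all genes past 1.5-fold. The median moved because 7 members were removed. Every other count stayed within 1.5 times its value and the median within 0.1. Values below the filter were not shown to be above background.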
